A study of Bubalus bubalis with 12 samples.

Results

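A set of 8 genes known as markers of the enteric nervous system and of the pacemaker cells of the gut were followed in the ruminal wall of dairy buffaloes: SOX10 and S100B for enteric glia, ELAVL4, UCHL1, RET and NCAM1 for neurons, and KIT and ANO1 for pacemaker cells. They were taken by gene name from the deposited table, in which each of the 8 names stood for 1 row among 34037 genes. Ruminal wall had been sampled at slaughter from 12 adult Italian Mediterranean dairy buffaloes of 1 commercial dairy, whose sample labels give no age. The 6 control animals received a total mixed ration (TMR), and the 6 treated animals a TMR with ryegrass as green feed, about 30% of the diet. Both rations were matched in nitrogen and energy, and each animal gave 1 library. The comparison asked whether green feed changed gene expression in the rumen.

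The enteric nervous system is a network of neurons and glial cells in ganglia within the gut wall. In the muscle layer it lies beside the interstitial cells of Cajal, which set the rhythm of contraction in parts of the gut. Its neurons and glia arise from neural crest cells that need the transcription factor SOX10 and the receptor RET. The ruminal wall also carries a thick keratinised squamous epithelium, so that the share of nerve and muscle in a biopsy depends on how deep it reaches. In such bulk samples, fewer cells of a type and less RNA per cell cannot be told apart.

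The values are FPKM, fragments scaled to gene length and to the fragments counted in the animal. The reads behind each of them were worked out from the ratios of a gene's values between animals. The number of fragments counted per animal ran from 10531541 to 12948372. Of 13 listed genes that every cell uses, such as ACTB and GAPDH, all 13 were above 0 in all 12 animals, and the lowest value was 3.23 FPKM. The tissue label was met by the markers of squamous epithelium: KRT5, a keratin of basal cells, had a mean of 1493 FPKM, KRT15, another keratin of this layer, 847.3, and DSG3, a desmosomal cadherin, 685.7. A gene was tested across diets when it reached 40 reads, scaled to the median depth, in at least 1 animal, which 12742 genes did. A value of 3 reads or fewer was treated as too low to be told from 0.

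By this measure, 2 of the 8 genes could be measured in every animal and 6 could not. SOX10 and ELAVL4 were listed at 0 in all 12 animals. UCHL1, RET, NCAM1 and ANO1 had reads, but each was at 3 reads or fewer in at least 4 animals. Only S100B and KIT were above 3 reads in all 12 animals and passed the filter. Since most of the set was at or near 0, the genes are described by name and not as a measure of glia, neurons or pacemaker cells.

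**Figure D1:**
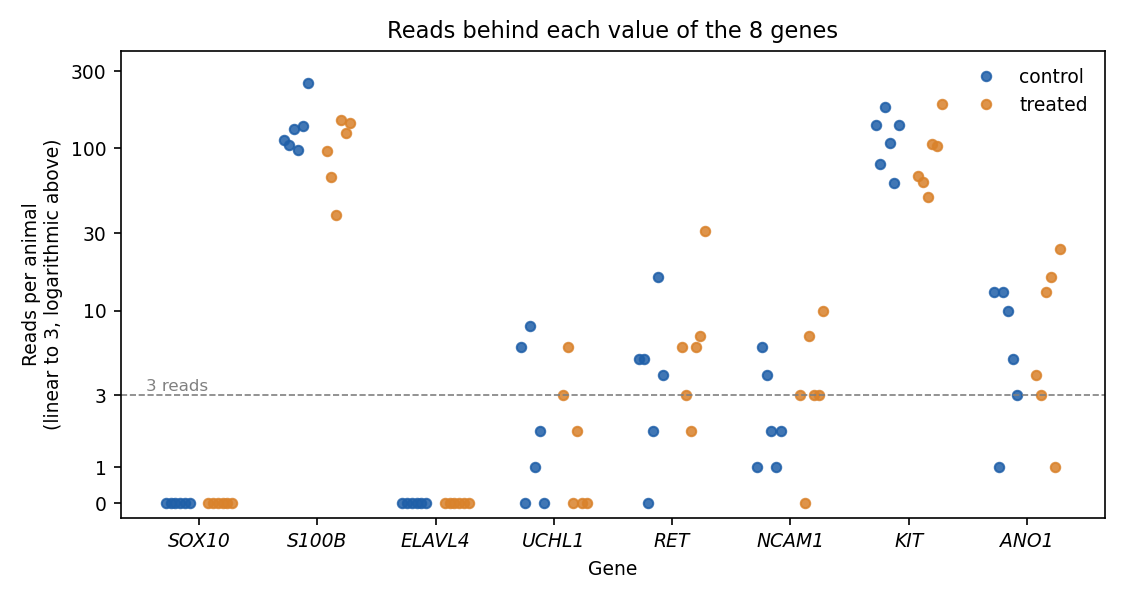
Reads per animal for the 8 genes, 6 control (blue) and 6 treated (orange) animals each, with 3 reads as a dashed line; the axis is linear to 3 and logarithmic above. S100B and KIT lie above 3 reads throughout, between 39 and 253 and between 50 and 187 reads, while SOX10 and ELAVL4 lie at 0.

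SOX10 (gene 102414066), the transcription factor that enteric glia and other neural crest cells keep switched on, had 0 of 145596348 counted fragments over the 12 animals. A count of 0 allows up to 3 reads, or 2.06e-06 percent of the fragments of all animals together. This limit covers counting error only, and whether the gene model used can collect uniquely placed reads was not checked here, so that it is a limit on reads counted in this row and not on expression. The deposited table holds 11065 genes at 0 in all 12 animals, so that a row at 0 was common. Of the relatives of SOX10, SOX8 and SOX9 reached at most 3 reads in any animal.

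S100B (gene 102392788) encodes a calcium-binding protein of glia and Schwann cells that some dendritic cells and fat cells also make. It was the highest of the 8 genes. In the control group its FPKM had a lowest value of 5.04, a median of 6.21 and a highest value of 15.7, and in the treated group 2.12, 6.08 and 8.11. The groups overlapped, and the medians lay close together. The highest value was that of control replicate 6, with 253 reads, and the lowest that of treated replicate 3, with 39 reads.

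The means were 7.69 ± 3.98 FPKM (SD, n = 6) in control animals and 5.57 ± 2.33 (SD, n = 6) in treated animals. On the log2(FPKM + 0.01) scale, limma put the difference, treated minus control, at -0.49 (SE 0.34, 95% interval from -1.22 to 0.25). Its Benjamini-Hochberg adjusted p in limma was 0.9996. The two-sided exact permutation test over all 924 assignments gave p = 0.271, where the smallest possible value is 0.00216. Without control replicate 6 the log2 fold change was -0.26 and without treated replicate 6 it was -0.60, so that 1 animal moved its size by more than 1.5 times.

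ELAVL4 (gene 102415437), the RNA-binding protein HuD that is used to count enteric neurons, was at 0 in all 12 animals, with the same limit on reads and the same unchecked gene model as SOX10. Of its relatives, ELAVL3 was also at 0 and ELAVL2 reached at most 5 reads in any animal. ELAVL1, the member of the family that most cells express, had a mean of 16.2 FPKM.

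UCHL1 (gene 102414729), a deubiquitinating enzyme known as the pan-neuronal marker PGP9.5, had 28 reads over the 12 animals, counted over 1101 bases. In the control group its reads had a lowest value of 0, a median of 1.5 and a highest value of 8, and in the treated group 0, 1.0 and 6. It was at 0 in 2 control and 3 treated animals and above 3 reads in 3 animals, namely control replicates 1 and 3 and treated replicate 2. UCHL1 was therefore too low to be compared between diets. The other enzymes of its family were far above it, with a mean of 73.6 FPKM for UCHL3, 26.8 for UCHL5 and 13.0 for BAP1.

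RET (gene 102404389), the receptor for ligands of the GDNF family, had 87 reads over the 12 animals. Its FPKM had a lowest value of 0, a median of 0.0705 and a highest value of 0.237 in the control group, and 0.0302, 0.0906 and 0.442 in the treated group. Treated replicate 6 alone held 35.6% of the reads, with 31, and control replicate 5 had 16, while no other animal had more than 7. The difference of the group means of log2(FPKM + 0.01) was 0.75 (two-sided exact permutation p = 0.377, n = 6 per group). It was 0.32 without treated replicate 6 (exact permutation p = 0.695) and 0.22 without control replicate 3, the animal at 0 (exact permutation p = 0.742). With 0.1 or 1 added to the FPKM in place of 0.01, it was 0.30 or 0.06, so that its size depended on the value added. RET was at 3 reads or fewer in 4 of the 12 animals, and the groups overlapped.

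The genes that act with RET were unequal in level. Its ligands GDNF, ARTN and PSPN reached at most 3 reads in any animal, and the ligand NRTN had a mean of 0.153 FPKM. Of the co-receptors that hold these ligands, GFRA2 had a mean of 3.39 FPKM, GFRA3 0.627, GFRA4 0.404 and GFRA1 0.0895. EDN3, the ligand of a second pathway of enteric neural crest cells, was the highest of the 10 genes of this list at 13.9 FPKM, and its receptor EDNRB had 0.939. Of these 10 genes 5 were tested between diets, and 0 of the 5 passed limma at a nominal 0.05. Their log2 fold changes ran from -1.05 (SE 0.89) for GFRA4 to 0.20 (SE 0.24) for EDN3. The median was -0.39, the value of EDNRB (SE 0.41), against 0.0050 over all 12742 genes tested.

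NCAM1 (gene 102397042), an adhesion molecule of neurons, glia and natural killer cells, was the lowest of the 6 genes with reads. It had 42 reads over the 12 animals, with 1, 2.0 and 6 as lowest, median and highest in the control group and 0, 3.0 and 10 in the treated group. Only 4 animals were above 3 reads, control replicates 2 and 3 and treated replicates 3 and 6. NCAM1 was too low to be compared. Among its relatives, the adhesion molecule CHL1 had a mean of 17.7 FPKM and L1CAM 0.789. ST8SIA4, an enzyme that puts polysialic acid on NCAM1, had 42.7 FPKM, and its relative ST8SIA2 reached at most 3 reads. Of the 5 genes of this list 3 were tested, 0 passed limma at a nominal 0.05, and the median log2 fold change was 0.24.

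KIT (gene 102410945) encodes the receptor of stem cell factor, on which interstitial cells of Cajal, mast cells and melanocytes depend. In the control group its FPKM had a lowest value of 0.964, a median of 1.90 and a highest value of 2.69, and in the treated group 0.806, 1.40 and 2.85. The groups overlapped over most of their range. The 2 highest values were those of treated replicate 6 and control replicate 3, with 187 and 180 reads, and 3 treated animals lay at or below 1.10 FPKM.

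Mean FPKM of KIT were 1.89 ± 0.697 (SD, n = 6) in control animals and 1.53 ± 0.746 (SD, n = 6) in treated animals. The limma log2 difference was -0.34 (SE 0.34, 95% interval from -1.07 to 0.38). Its adjusted p in limma was 0.9996, and the two-sided exact permutation test gave p = 0.348. Without treated replicate 6 it was -0.55, and without treated replicate 3 it was -0.19, so that 1 animal moved its size by more than 1.5 times. With a score of smooth muscle genes as a covariate it was -0.04 (SE 0.37) for KIT and -0.26 (SE 0.40) for S100B. The score itself had a median of 1.46 in control and 0.87 in treated animals. Its part in the difference between diets was not tested.

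**Figure D2:**
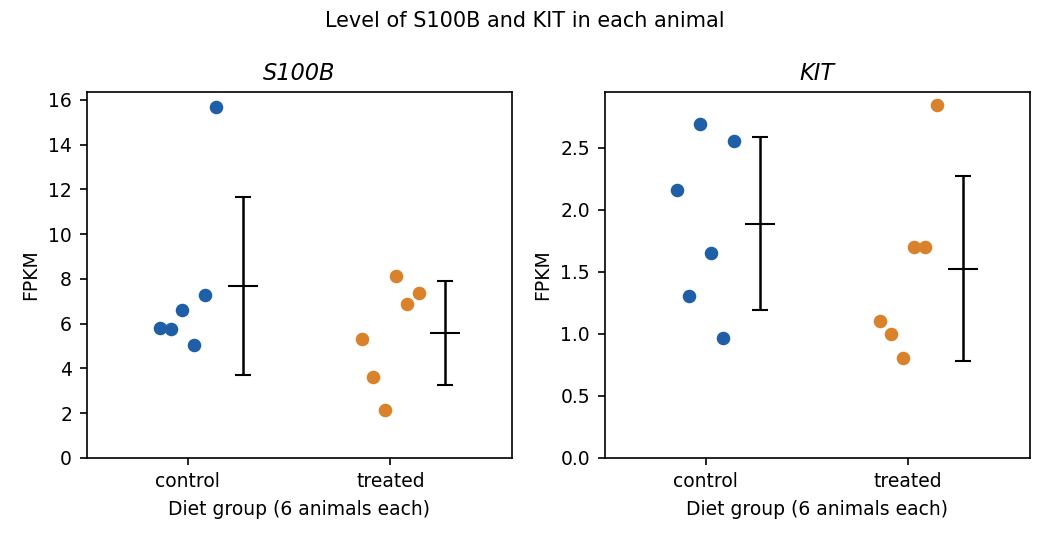
FPKM of S100B and KIT in each animal of the control (blue) and treated (orange) group, with mean and SD (n = 6 each) in black. The groups overlap for both genes, and control replicate 6 stands at 15.7 FPKM for S100B.

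The ligand of KIT, KITLG, had a mean of 0.918 FPKM and at most 18 reads in any animal. Among the proteins that pass on or limit KIT signals, the phosphatase PTPN11 had 24.5 FPKM, SOCS6 8.39 and the ubiquitin ligase CBL 4.36. Of the 6 genes of this list 5 were tested and 0 passed limma at a nominal 0.05, with a median log2 fold change of -0.06.

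ANO1 (gene 102399708), a calcium-activated chloride channel that carries the pacemaker current of interstitial cells of Cajal, had 106 reads over the 12 animals. Its reads had 1, 7.5 and 13 as lowest, median and highest in the control group and 1, 8.5 and 24 in the treated group. In FPKM the group means were 0.119 ± 0.0790 (SD, n = 6) and 0.164 ± 0.142 (SD, n = 6), respectively. The difference of the mean log2(FPKM + 0.01) was 0.21 (two-sided exact permutation p = 0.781). Without treated replicate 6 it was -0.13, without control replicate 2 it was -0.18 and without treated replicate 4 it was -0.03, so that ANO1 had no stable direction. Other members of the anoctamin family were far higher, with means of 22.3 FPKM for ANO10, 10.5 for ANO6, 9.60 for ANO9 and 1.76 for ANO8, while ANO4 and ANO5 were at 0. Of the 9 other anoctamins 4 were tested, 0 passed limma at a nominal 0.05, and their median log2 fold change was 0.06.

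Of the 2 genes of the set that were tested between diets, 0 passed limma at a nominal 0.05. Over all genes tested the number was 162 of 12742, or 1.27%, of which 102 (0.801%) were higher and 60 (0.471%) lower with green feed. An adjusted p-value below 0.05 was reached by 0 of the 12742 genes (0.0%). With voom, also in limma, on the reads, 145 genes passed before and 0 after adjustment. When all 22972 genes above 0 were tested, 562 (2.45%) passed at the nominal level, 271 (1.18%) higher and 291 (1.27%) lower, and 0 of the 6 genes of the set with reads were among them. Leaving out treated replicate 6 raised the nominal count over all genes to 331 of 12742, and it stayed at 0 for the set.

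FPKM are scaled by length, and the genes were compared on this scale. How gene lengths were set is not given, and fragments with several positions were left out, so that the order is one of deposited values. The order of mean FPKM was S100B with 6.63, KIT with 1.71, UCHL1 with 0.170, ANO1 with 0.142, RET with 0.107 and NCAM1 with 0.0368. S100B was above KIT in 12 of 12 animals, and KIT was above UCHL1 in 12 of 12. UCHL1 was above ANO1 in 5 of 12 animals and ANO1 above RET in 6 of 12, so that these neighbours were not ordered. RET was above NCAM1 in 10 of 12 animals. RET exceeded 3 reads in only 8 animals and NCAM1 in only 4, so that this count is not an ordering. The ratio of S100B to KIT within an animal ran from 2.45 in control replicate 3 to 7.56 in control replicate 5. Among the 22972 genes above 0, the mean FPKM of S100B was above 69.4% of genes and that of KIT above 52.1%, while those of the other 4 lay between the 16.5% of NCAM1 and the 29.8% of UCHL1.

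Further markers of the same cell types were mostly as low. Of 14 markers of glia and Schwann cells, 6 reached at most 3 reads in any animal, among them the glial filament GFAP and the cadherin CDH19. Only 2 of the 14 had a mean of at least 1 FPKM, namely SOX2 with 44.7 and ERBB3 with 38.8, a stem cell factor and a growth factor receptor that squamous epithelia express as well. L1CAM came next with 0.789. Of the 5 that were tested, 0 passed limma at a nominal 0.05, and the median log2 fold change was -0.12.

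Of 17 neuronal markers in the table, 7 were at 0 in all animals, including the transcription factor PHOX2A and the neurofilaments NEFL and NEFM. None of the 17 had a mean of 1 FPKM or more or passed the filter. The 3 highest were the filament protein INA with 0.388 FPKM, the growth cone protein STMN2 with 0.269 and the synaptic vesicle protein SYT1 with 0.153. The summed FPKM of the list ran from 0.544 to 2.01 in control and from 0.516 to 1.39 in treated animals.

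Of 11 genes for neurotransmitters and neuropeptides in the table, 8 were at 0 in all animals, among them VIP, TAC1, NOS1 and NPY. The 3 with reads were CHAT, the enzyme that makes acetylcholine, with a mean of 0.0613 FPKM, somatostatin (SST) with 0.0482 and tyrosine hydroxylase (TH) with 0.0118. CHAT alone exceeded 3 reads in an animal, with at most 9.

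Of 9 further markers of interstitial cells of Cajal and of the PDGFRA-positive cells beside them, 7 were tested and 0 passed limma at a nominal 0.05, with a median log2 fold change of -0.27. The highest were the purinergic receptor P2RY1 with 11.3 FPKM, PDGFRA itself with 3.24 and CD34 with 3.02, of which the latter also marks fibroblasts and vessels. Whether the reads of P2RY1 and PDGFRA came from the cells of this list was not tested either. ETV1, the transcription factor that marks interstitial cells of Cajal more closely, had a mean of 0.0984 FPKM and at most 15 reads in an animal.

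**Figure D3:**
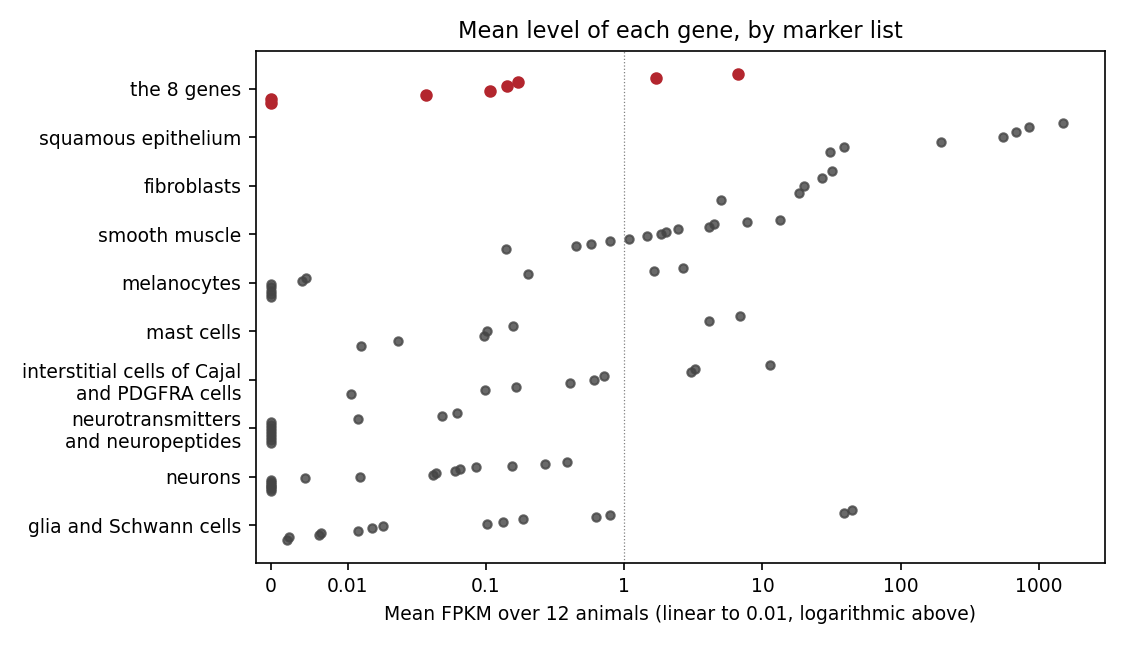
Mean FPKM over 12 animals of each gene of the marker lists (grey) and of the 8 genes (red), on an axis that is linear to 0.01 and logarithmic above, with a dotted line at 1 FPKM. All neuronal and neurotransmitter genes lie below 1 FPKM, while the epithelial markers lie between 30.6 and 1493 FPKM.

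Cell types that share S100B or KIT were represented unequally. Of 7 mast cell genes in the table, FCER1A with 6.85 FPKM and the histidine decarboxylase HDC with 4.08 passed the filter, both of which other cells can express, and GATA2 came next with 0.156. The protease CPA3, a defining gene of mast cells, had a mean of 0.102 FPKM and at most 5 reads. The summed FPKM of the mast cell list ran from 7.35 to 13.6 in control and from 4.52 to 19.2 in treated animals. Of 10 melanocyte genes, 5 were at 0 in all animals, including the pigment enzymes TYR, TYRP1 and DCT. SLC45A2 had 2.68 FPKM, MITF 1.64 and PMEL 0.200, and the summed level ran from 3.16 to 8.15 in control and from 3.07 to 5.02 in treated animals. Of the 2 genes tested in each of these lists, 0 passed limma at a nominal 0.05, and the median log2 fold changes were -0.34 for mast cells and -0.22 for melanocytes. The part of these cells in the S100B and KIT values was not tested.

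Of 4 fat cell genes, ADIPOQ and LEP were at 0 and PLIN1 reached at most 3 reads, while FABP4, which capillaries also express, had 85.7 FPKM and a log2 fold change of -0.39. The summed level of these genes, in effect that of FABP4 alone, ran from 37.7 to 246.3 in control and from 44.6 to 110.8 in treated animals. Of the 5 natural killer cell genes only NKG7 was in the table, and it did not pass the filter. Its FPKM ran from 0.962 to 2.29 in control and from 0.440 to 2.19 in treated animals.

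Most of the enteric plexus and the pacemaker cells lie in the muscle layer, and 13 smooth muscle genes were followed, of which 10 were tested. Which cells of the biopsies these genes came from, and so whether they reflect the muscle layer, was not tested. All 10 had a lower mean log2 value in the treated group, as had 48.8% of the 12742 genes tested, and their median log2 fold change was -0.68. Among all genes 0.471% were lower at a nominal 0.05, and 1 of the 10, desmin (DES), an intermediate filament of muscle, had a nominal limma p-value of 0.0271 at a log2 fold change of -1.04 (limma adjusted p = 0.9996). DES went from 3.22 ± 1.40 FPKM in the control group to 1.66 ± 0.976 in the treated group (SD, n = 6 each). The 3 highest of the list were the smooth muscle protein SMTN with 13.5 FPKM, TAGLN with 7.70 and CALD1 with 4.45, none of which had a nominal p-value below 0.05. For SMTN the mean FPKM was the higher in treated animals, with 13.5 against 13.4, at a log2 fold change of -0.03. The summed FPKM of the list ran from 34.2 to 62.1 in control and from 23.6 to 50.2 in treated animals. The 5 fibroblast genes, led by COL3A1, LUM and DCN with 32.1, 26.9 and 20.1 FPKM, all had a lower mean log2 value in the treated group, against the same 48.8% of all genes, with a median log2 fold change of -0.73, and 0 of them passed limma at a nominal 0.05. Their summed level ran from 37.1 to 253.7 in control and from 16.3 to 157.8 in treated animals. Of the 7 epithelial genes tested, 0 passed limma at a nominal 0.05, and the median log2 fold change was 0.07.

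The level of S100B and KIT was therefore set against a smooth muscle score, the mean log2(FPKM + 0.01) of the 10 tested muscle genes. The score ran from 0.82 to 2.03 in control and from 0.03 to 1.78 in treated animals. For KIT, Pearson's r over the 12 animals was 0.51 (two-sided permutation p = 0.0892) and Spearman's rho 0.45 (permutation p = 0.139). The adjusted p-value over the 6 relations computed was 0.268. Without the 2 animals farthest from the median score, treated replicates 1 and 2, r was 0.32 (permutation p = 0.356). Within the control group r was 0.63 and within the treated group 0.33, with n = 6 each. Treated replicate 6 had the highest KIT at a score of 0.76, and without it r was 0.69 (permutation p = 0.0196). When the 12 animals were left out in turn, this was the only p-value below 0.05, and it was not adjusted for their number. With a score of MYH11, ACTA2 and CNN1 only, r over the 12 animals was 0.31 (permutation p = 0.327). Of all genes tested, 5.21% had an r at least as large as KIT over the 12 animals.

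For S100B, r was 0.43 (permutation p = 0.158, adjusted p = 0.316) and rho 0.48 (permutation p = 0.114), with 0.36 without the same 2 animals (permutation p = 0.313), 0.26 within the control group and 0.33 within the treated group. An r at least as large was found for 8.59% of genes. For ANO1 r was 0.19 (permutation p = 0.553) and rho 0.15 (permutation p = 0.653), and for RET r was -0.21 (permutation p = 0.517) and rho -0.17 (permutation p = 0.606). Without treated replicates 1 and 2, r was 0.0031 for ANO1 and -0.34 for RET. The adjusted p-value was 0.553 for both. These genes had few reads, and for SOX10, ELAVL4, UCHL1 and NCAM1 no relation was computed.

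**Figure D4:**
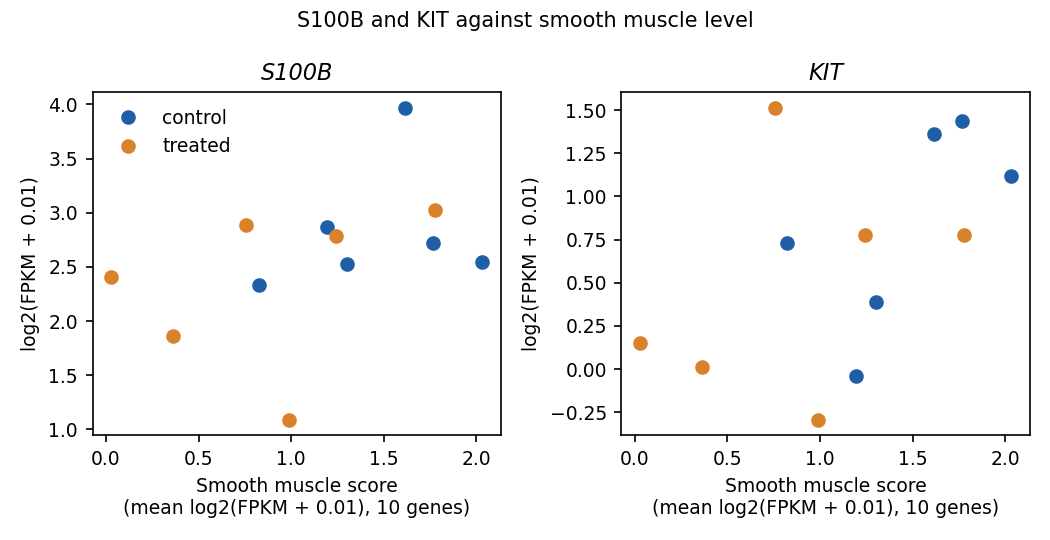
log2(FPKM + 0.01) of S100B and KIT against the smooth muscle score of each animal, control in blue and treated in orange. Pearson's r over the 12 animals is 0.43 for S100B and 0.51 for KIT, and treated replicate 6 lies above the other animals for KIT at a score of 0.76.

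Both pacemaker markers were also compared with each other. Pearson's r of KIT and ANO1 was 0.32 (permutation p = 0.316, adjusted p = 0.474) and rho was 0.32 (permutation p = 0.310). Without control replicate 2 and treated replicate 5, the animals farthest from the median of ANO1, r was 0.41 (permutation p = 0.227), and it was 0.45 within the control group and 0.29 within the treated group. With the mean log2(FPKM + 0.01) of FCER1A and HDC, the 2 tested genes of the mast cell list, the r of KIT was 0.53 (permutation p = 0.0752, adjusted p = 0.268) and rho was 0.44 (permutation p = 0.155). It was 0.36 without control replicate 5 and treated replicate 1 (permutation p = 0.313), 0.58 within the control group and 0.45 within the treated group. None of the 6 relations had a p-value below 0.05 over the 12 animals.

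Treated replicate 6 held the highest value of 4 of the 6 genes with reads, namely RET, NCAM1, KIT and ANO1. Control replicate 6 held that of S100B and control replicate 3 that of UCHL1. Treated replicate 6 also had the highest mean log2(FPKM + 0.01) of FCER1A and HDC, 3.17, against a range from 1.45 to 2.69 in the control group. Both genes are expressed by other cells too, and the more specific mast cell genes CPA3, MS4A2 and HPGDS had means of only 0.102, 0.0230 and 0.0125 FPKM. Its part in the values of the other genes was not tested.

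The genes whose pattern over the 12 animals was most like that of S100B were LRRC8C, a subunit of volume-regulated anion channels, with a Pearson's r of 0.91, C22H18orf54 with 0.90 and the zinc finger gene ZFAND1 with 0.89. For KIT they were ELF2, an ETS-type transcription factor, with 0.96, the RNA-binding protein gene RBMS3 with 0.95 and the connexin gene GJC1 with 0.94. RBMS3 and GJC1 had means of 0.472 and 0.309 FPKM, and ELF2 varied only between 11.7 and 15.5 FPKM. These are the highest of 12741 values over the same 12 libraries and serve as a description.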

How the data were processed

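Total RNA of 12 ruminal walls, 1 stranded library per animal, was measured by RNA-seq. The authors trimmed reads with Trimmomatic 0.39, used STAR 2.5.2b for alignment to the UOA_WB_1 assembly and featureCounts 2.0.0 for stranded counts of fragments per gene at a mapping quality of at least 30, so that fragments with several positions were left out. The authors deposited FPKM, and how gene lengths were set is not given in the sources used here. Of the columns, 4 match no sample label and were not used.

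Groups and replicate numbers were taken from the labels, which name no batch. For all 22972 genes above 0 the values could be written as whole multiples of 1 read, which gave the reads, the depth and the length counted. The tolerance was set at 1e-06, with a looser one for genes that did not meet it. Where only 1 animal had reads, the fewest reads that gave a whole length were taken. The reads of each animal summed to at least 0.99999 of its depth. Genes with at least 40 depth-scaled reads in at least 1 animal, close to the cutoff in the study's methods, were tested with limma 3.58.1 in R 4.3.3 (trend, Benjamini-Hochberg) on log2(FPKM + 0.01), since FPKM are not counts. Exact permutation tests covered all 924 assignments, and relations across animals 100000 resamples (Python 3.11.15, scipy 1.17.1). The methods were tested on simulated data. Alternatives were pseudocounts of 0.1 and 1, other filters, median ratio scaling, robust empirical Bayes, a smooth muscle covariate, the replicate number as a block, voom, and each animal left out.

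Named were the 8 genes, the 3 highest genes of each marker list with any gene at a nominal p-value below 0.05, and the 3 genes most like S100B and KIT. Other list genes were named after their values were seen. Members and lists were chosen with earlier results of these data known. The RefSeq gene table of NDDB_SH_1, another assembly, held all 8 identifiers with the same symbols, and no coordinates were taken from it.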

Additional observations from a re-analysis of the deposited data

Results flagged for a closer look

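Dixon's ratio of gap to range was taken in 14 sets of 6 values, those of the 6 genes with reads and of the smooth muscle score in each group. At the 95% level, 3 animals stood apart from the rest of their group. Chance gives this for about 1 group in 20 when values are normally distributed. FPKM that rest on few reads need not be, so that this rate is only a rough guide. For S100B this was control replicate 6, with 15.7 FPKM and a gap of 0.788 of the range. For RET it was control replicate 5, with 0.237 FPKM and a gap of 0.678, and treated replicate 6, with 0.442 FPKM and a gap of 0.813. The values of RET rest on 16 and 31 reads.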

How the results depend on the processing

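No gene of the set had a nominal p-value below 0.05 between diets under any of the 21 alternatives, and 0 genes overall had an adjusted one. The number of genes with a nominal p-value below 0.05, 162 as reported, was 562 without a filter, 301 when 0.1 FPKM was required in 6 animals or more, 325 with the replicate number as a block (replicate block), and from 145 to 331 with 1 animal left out, the highest without treated replicate 6. The cause was not tested, and without a filter the share also differed, at 2.45% against 1.27%. The log2 fold change ran from -0.62 to -0.24 for S100B and from -0.55 to -0.19 for KIT with 1 animal left out. In the other settings it ran from -0.49 to -0.26 and from -0.35 to -0.04, each lowest in size with the smooth muscle covariate. The SE with this covariate was 0.40 for S100B and 0.37 for KIT. With 1 animal left out, the log2 fold change of ANO1 ran from -0.18 to 0.64 and that of RET from 0.22 to 1.15. That of NCAM1 ran from 0.09 to 0.78 and that of UCHL1 from -1.34 to -0.15. Both genes were too low to be compared, so that these signs are not a direction. With 1 in place of 0.01 added to the FPKM, the value went from 0.36 to 0.02 for NCAM1. For UCHL1 it went from -0.70 to -0.07. With 1 animal left out, the r with the smooth muscle score ran from 0.44 to 0.69 for KIT and 0.34 to 0.51 for S100B. It ran from 0.10 to 0.32 for ANO1 and -0.29 to 0.0105 for RET, the latter without control replicate 3. The replicate block, scaling, robust, covariate and voom fits were run on filtered genes only, S100B and KIT. Same-numbered animals of both groups are different animals. Their deviations from the group mean correlated from -0.01 to 0.41 over 6 pairs, with a mean of 0.21, against -0.04 over the 30 other pairs. Each animal had 6 possible partners, and 8 of 12 animals correlated best with their own number. The sample titles carry other numbers, which differ between the animals of every same-numbered pair. What same-numbered animals share is not given in the labels and was not tested. Low read numbers limit UCHL1, RET, NCAM1 and ANO1, each at 3 reads or fewer in some animals, to a statement of level. For SOX10 and ELAVL4, at 0 in all 12 animals, the gene model was not checked, so that only the reads counted can be stated.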
